A study of Mus musculus with 15 samples.

Results

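The BCL2 family decides whether mitochondria release the proteins that start apoptosis. The following 10 genes of the family were followed through RNA sequencing of mouse cerebellum: the BH3-only genes Hrk, Bbc3, Pmaip1, Bcl2l11, Bid and Bad, the effectors Bax and Bak1, and the anti-apoptotic genes Bcl2 and Bcl2l1. They were chosen by gene symbol, and all 10 were found among the 24421 genes of the count tables. The rule names symbols and gives no threshold on a measured value, but the list was drawn up with the fold changes of all 3 comparisons below known. The fold changes and adjusted p-values therefore describe these genes in these libraries and are not independent support for a change of the family as a whole.

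All mice were FVB. ATXN1[82Q] mice carry human ATXN1 with 82 glutamines under the Pcp2 promoter, which drives expression in Purkinje cells, whose axons carry the output of the cerebellar cortex. The second transgene, ATXN1[82Q]V591A;S602D, has the same promoter and tract with V591A and S602D added, a pair of changes known to weaken binding to the transcriptional repressor CIC, and is called the substituted transgene below. Wild-type mice carried neither. Each genotype had 5 libraries of whole cerebellar RNA, with 36467948 to 42818401 counts on genes per library. Ages are not in the labels, nor is it stated whether every library is a different mouse, so the spread behind each p-value may be technical in part. The transgenes are made in Purkinje cells, while the RNA came from all cells of the tissue. Mouse Atxn1 averaged 76.8 ± 6.46 CPM in ATXN1[82Q], 83.9 ± 4.04 with the substituted transgene and 70.1 ± 9.03 in wild type (SD, n = 5 each), and it did not pass in any of the 3 comparisons (adjusted p 0.112 to 0.202, edgeR). Human transgene transcripts enter that count only where they align to the mouse gene, so transgene level and substitution cannot be told apart.

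BAX and BAK1 form pores in the mitochondrial outer membrane, which frees cytochrome c and leads to caspase activation. BCL2 and BCL-XL, the product of Bcl2l1, hold them in check. BH3-only proteins carry signals of stress or lost trophic support to this switch, by binding the anti-apoptotic proteins or the effectors themselves. In mice Bax is needed for much of the natural death of developing neurons, and BCL-XL is the main anti-apoptotic member of adult neurons.

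Hrk, Bbc3 and Bcl2l11 are the BH3-only members whose 5 ATXN1[82Q] libraries all lay above the 5 wild-type libraries. For this reason the bases before RefSeq transcription starts of these genes are shown (GRCm38.p6, plus strand, 5′ to 3′). For Hrk and Bbc3 the starts used lie inside the gene as annotated in GENCODE M21 (positions below). For Bcl2l11 the window ends where the annotated gene begins. Hrk is shown at chr5:118169514-118169747, which stops where an annotated exon begins. Bbc3 is shown at chr7:16310011-16310260, 1 of its 3 annotated windows, and Bcl2l11 at chr2:128125788-128126037, 1 of its 2. For both genes the window shown was picked because it holds a match to the motifs searched, and their other windows hold none. Capitals mark matches to the FOXO motif GTAAACA on either strand.
Hrk: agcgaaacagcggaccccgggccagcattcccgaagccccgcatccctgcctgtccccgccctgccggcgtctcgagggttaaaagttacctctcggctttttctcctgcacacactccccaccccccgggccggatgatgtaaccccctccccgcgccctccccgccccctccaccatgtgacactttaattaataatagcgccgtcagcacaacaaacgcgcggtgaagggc
Bbc3: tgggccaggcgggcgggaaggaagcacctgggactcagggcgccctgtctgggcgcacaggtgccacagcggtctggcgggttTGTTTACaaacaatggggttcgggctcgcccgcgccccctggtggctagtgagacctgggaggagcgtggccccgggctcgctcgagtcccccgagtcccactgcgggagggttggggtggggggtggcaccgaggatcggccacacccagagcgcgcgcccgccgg
Bcl2l11: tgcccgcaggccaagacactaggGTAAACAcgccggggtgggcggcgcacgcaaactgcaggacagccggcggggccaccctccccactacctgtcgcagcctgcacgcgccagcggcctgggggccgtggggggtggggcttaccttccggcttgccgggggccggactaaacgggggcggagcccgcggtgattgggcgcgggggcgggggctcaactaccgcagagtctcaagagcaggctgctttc

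RefSeq gave 15 windows of 250 bases before a start for 9 of the 10 genes. Both strands of each were searched for GTAAACA (FOXO factors), TGANTCA (AP-1, the dimer that contains JUN), TGACGTCA (the cAMP response element) and TGAATGAA or TGAATGGA (the octamers that CIC binds). None of the matches overlapped another. The 15 windows are not all separate regions, since windows of Bbc3 at chr7:16310011-16310260 and chr7:16310181-16310430 overlap. Some windows of Bad and Bcl2l1 and that of Bak1 begin inside annotated exons. No window was available for Pmaip1. The FOXO motif occurred in 2 of the 15 windows, against 3.17% of all 32851 windows. It lay 227 bases before a start of Bcl2l11 and 167 bases before a start of Bbc3 (on the reverse strand). TGAATGAA occurred once, 118 bases before the start of Bcl2, against 1.08% of all windows. TGAATGGA, AP-1 and the cAMP response element were not in these 15 windows (1.01%, 6.75% and 1.55% of all windows). A match is a description of letters, and no binding was measured.

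Levels are given as CPM, the counts of a gene per 1000000 counts on genes, scaled between libraries by the trimmed mean of M values (TMM), and levels of different genes are compared only per kilobase of annotated exon. In wild type these 10 genes covered a wide range on the CPM per kilobase scale. Among them Bcl2l1 was highest at 35.4 ± 1.38 and Bax followed at 26.8 ± 1.07 (SD, n = 5). Bad stood at 10.9 ± 0.798, Bak1 at 6.13 ± 0.179 and Bbc3 at 4.79 ± 0.649. The lower group was Bcl2 at 2.27 ± 0.264, Pmaip1 at 1.95 ± 0.262, Hrk at 1.74 ± 0.197, Bcl2l11 at 1.22 ± 0.16 and Bid at 0.805 ± 0.0755. In that order Bcl2 and Pmaip1, and Pmaip1 and Hrk, lay within their spread of each other. In ATXN1[82Q] the level of Hrk was 6.08 ± 0.741 CPM per kilobase, next to Bak1 at 6.63 ± 0.348 and Bbc3 at 7.02 ± 0.521. Exons of all annotated transcripts were pooled for these lengths, so a gene that uses only some of them is understated. In GENCODE M21 (GRCm38), Hrk lies at chr5:118164648-118189478, Bbc3 at chr7:16308393-16318205 and Bcl2l11 at chr2:128126038-128162547, all on the plus strand. Bid lies at chr6:120891930-120916853 and Bcl2l1 at chr2:152780668-152831728, both on the minus strand. Exons of Bid, Bad, Bak1 and Bcl2 are overlapped by another gene on the opposite strand, and those of Bax by Gm45808 on the same strand (12.2% of exon length). The counts of Bid, Bad and Bak1 are therefore less certain. Gm45808 and the partner of Bcl2, D630008O14Rik, are not in the count tables under these names. Whether they affect the counts of Bax and Bcl2 could not be looked at. For Bad the partner Gpr137 covers 20.5% of exon length and did not pass in ATXN1[82Q] against wild type (log2 fold change -0.02, adjusted p = 0.77).

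The first question is which members differ between ATXN1[82Q] mice and wild type. No transgene with unexpanded ATXN1 was among the samples, so the expansion and the added ATXN1 cannot be told apart. In ATXN1[82Q] mice, set against wild type, 4 BH3-only genes rose, the effectors did not pass, and Bcl2l1 fell. Hrk rose 3.5-fold, Bbc3 1.47-fold, Bid 1.42-fold and Bcl2l11 1.35-fold, and Bcl2l1 fell 1.17-fold. Thus 4 of the 10 passed as higher and 1 as lower at an edgeR adjusted p under 0.05, where 16.6% and 14.9% of all 15843 tested genes did. The groups did not overlap for 3 members that were higher and 1 that was lower, where this held for 9.36% and 9.79% of all tested genes. Their median log2 fold change was 0.0608, and that of all tested genes 0.00685.

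Hrk encodes harakiri, a BH3-only protein of the nervous system that is induced when cultured neurons lose trophic support. It stood at 32.64, 29.97, 40.92, 32.81 and 36.16 CPM in the ATXN1[82Q] libraries, against 8.516, 8.813, 10.4, 10.66 and 10.95 CPM in wild type. The lowest ATXN1[82Q] library was thus well above the highest wild-type library. The log2 fold change was 1.81 (SE 0.167, 95% interval 1.45 to 2.16, adjusted p = 4.21e-07), the largest of the 10 in size. It passed under all 25 alternatives tried, with log2 fold changes from 1.73 to 1.88. Of the alternatives for each comparison, 15 left out 1 library each. Some of these left out a library of the genotype not compared, and so kept every library compared.

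The transcripts of Purkinje cells and microglia moved in the same libraries. The mean of 12 Purkinje cell markers in ATXN1[82Q] lay at -1.19 to -0.99 log2 units relative to the wild-type mean, with 11 of 12 lower, and their summed level was 4332 to 5096 CPM against 10010 to 11190 CPM in wild type. All 12 microglial markers were higher, with a summed level of 345 to 382.3 CPM against 185 to 215.1 CPM in wild type. In whole tissue, fewer cells of a type and less RNA per cell cannot be told apart. Markers of other glia moved too, with 7 of 10 oligodendrocyte markers higher and 0 lower (median log2 fold change 0.30) and 5 of 10 astrocyte and Bergmann glia markers higher and 2 lower (median 0.15). The part of any of these shifts in the change of Hrk or of any other member was not tested.

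Bbc3 encodes PUMA, a BH3-only protein known as a p53 target. It stood at 14.1, 14.8, 13.65, 15.74 and 16.31 CPM in ATXN1[82Q] and at 12.53, 10.05, 9.589, 8.944 and 9.768 CPM in wild type. The groups did not overlap, although wild-type replicate 1 came close to the lowest ATXN1[82Q] library. On the log2 scale it was higher by 0.55 (SE 0.0787, adjusted p = 4.92e-05), and it passed under all 25 alternatives.

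Bcl2l11 encodes BIM, which in neurons is known to be induced through JUN and FOXO factors. Its values were 14.26, 12.43, 14.48, 11.44 and 13.67 CPM in ATXN1[82Q] and 9.546, 7.845, 11.24, 9.801 and 10.57 CPM in wild type. The lowest ATXN1[82Q] library exceeded the highest wild-type library by a small margin. On the log2 scale the rise was 0.44 (SE 0.0954, adjusted p = 0.00227), and it too passed under all 25 alternatives.

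Bid encodes the BH3-only protein that caspase 8 cleaves downstream of death receptors. It had the lowest level per kilobase and stood at 3.426, 3.474, 3.275, 4.182 and 5.888 CPM in ATXN1[82Q], against 2.713, 2.848, 2.682, 2.721 and 3.323 CPM in wild type. The groups overlapped, since replicate 3 of ATXN1[82Q] lay below replicate 5 of wild type. The log2 fold change was 0.50 (SE 0.144, adjusted p = 0.013). Replicate 5 of ATXN1[82Q], the highest library, was also the one richest in markers of brainstem neurons, 2.26 log2 units above the wild-type mean. Without that replicate the log2 fold change was 0.33 (adjusted p = 0.0307). The call was lost in libraries with little choroid plexus RNA (Ttr under 100 CPM, 0.28, adjusted p = 0.2), with the brainstem marker mean as a covariate (0.33, adjusted p = 0.105) and, in an alternative added after the data were seen, without the 3 brainstem-rich libraries (0.34, adjusted p = 0.0528). On the opposite strand Bcl2l13 covers 17.7% of the exon length of Bid, and its log2 fold change was 0.01 (adjusted p = 0.83).

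The other BH3-only members did not pass. Bad encodes a protein that growth-factor kinases keep inactive by phosphorylation. It stood at 21.09, 24.95, 24.31, 26.47 and 25.31 CPM in ATXN1[82Q] and at 29.77, 28.24, 25.71, 25.57 and 29.61 CPM in wild type. The groups overlapped, with 4 of the ATXN1[82Q] libraries under the lowest wild-type library. Its log2 fold change was -0.19 (95% interval -0.33 to -0.04, adjusted p = 0.051), and it passed as lower in 10 of 25 alternatives, among them DESeq2 (adjusted p = 0.0291). Pmaip1 encodes NOXA, a p53 target that binds MCL1. It ranged from 4.618 to 6.654 CPM in ATXN1[82Q] and from 4.406 to 6.305 CPM in wild type, with a log2 fold change of 0.01 and an interval of -0.23 to 0.24 (adjusted p = 0.966).

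Among the effectors, Bax averaged 42.04 ± 2.31 CPM in ATXN1[82Q] and 42.3 ± 1.68 CPM in wild type (SD, n = 5), a log2 fold change of -0.01 with an interval of -0.10 to 0.08. Bak1 averaged 15.95 ± 0.839 CPM in ATXN1[82Q] and 14.7 ± 0.432 CPM in wild type (log2 fold change 0.11, interval -0.01 to 0.23, adjusted p = 0.141). Ggnbp1 lies over exons of Bak1 on the opposite strand and rose (log2 fold change 0.58, adjusted p = 0.000286, at most 188 counts per library). Without strand the reads of the pair cannot be told apart.

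Bcl2l1, which had the highest level of the 10 per kilobase, stood at 126.7, 138.6, 142.1, 145.5 and 141.7 CPM in ATXN1[82Q] and at 169, 165, 165.2, 152.5 and 160.5 CPM in wild type. The groups did not overlap. Its log2 fold change was -0.23 (SE 0.0375, adjusted p = 0.000227), small in size and called under all 25 alternatives. Granule cell markers, from the most numerous neurons of the cerebellum, moved beside it, with 8 of 10 lower, a median log2 fold change of -0.19 and a summed level of 5901 to 6310 CPM against 7199 to 8288 CPM in wild type. Their part in the change of Bcl2l1 was not tested. Bcl2 did not pass (log2 fold change -0.18, interval -0.43 to 0.08, adjusted p = 0.282). Its ATXN1[82Q] libraries fell into a high pair at 22.55 and 23.29 CPM and a low set at 16.06, 15.62 and 14.37 CPM, and wild type stood at 22.46, 20.23, 23.46, 20.58 and 17.17 CPM. The low set lay below every wild-type library and the high pair lay within the wild-type range.

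The second question is which members pass against wild type with the substituted transgene. These data hold no measurement of binding to CIC. For the substituted transgene against wild type, Bbc3 was the member that passed. It rose 1.32-fold. Thus 1 of 10 members passed as higher and 0 as lower by edgeR, where 0.208% and 1.2% of all tested genes did. At an unadjusted p under 0.05 there were 2 higher and 3 lower, and DESeq2 called 1 higher and 0 lower. The shares of 0.208% and 1.2% are for edgeR calls at an adjusted p under 0.05 and do not apply to these counts. The share of all tested genes at an unadjusted p under 0.05 is not given here, and DESeq2 called 429 genes in all. The groups did not overlap for 1 higher and 0 lower members, where this held for 1.13% and 2.03% of all tested genes. The median log2 fold change was -0.017 over the members and 0.00588 over all tested genes.

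Bbc3 stood at 13.83, 13.75, 12.61, 13.4 and 13.56 CPM with the substituted transgene, against 12.53, 10.05, 9.589, 8.944 and 9.768 CPM in wild type. All 5 libraries lay above wild type, by a narrow margin over wild-type replicate 1. The log2 fold change was 0.40 (SE 0.079, interval 0.23 to 0.57, adjusted p = 0.0129). It passed under all 25 alternatives, with adjusted p-values from 0.0002 to 0.0499. In the same comparison 7 of 12 Purkinje cell markers were called lower (median log2 fold change -0.34). Among the 12 microglial and 10 granule cell markers 0 were called. The part of the Purkinje cell shift in the change of Bbc3 was not tested.

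Hrk spread widely with the substituted transgene, at 20.75, 18.12, 11.07, 14.59 and 9.455 CPM, against 8.516 to 10.95 CPM in wild type. Replicate 5 lay within the wild-type range and the others above it, replicate 3 by a narrow margin. The log2 fold change was 0.59 (SE 0.169, interval 0.23 to 0.94) and did not pass (adjusted p = 0.118), although it passed without that replicate 5 (0.71, adjusted p = 0.0231). The Purkinje marker mean in the same libraries was -0.496, -0.362, -0.128, -0.406 and -0.3 relative to wild type. Replicate 1 had the most Hrk and the lowest Purkinje mean, while replicate 3 had the highest Purkinje mean and the second lowest Hrk. With 5 libraries no correlation was computed.

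The remaining members did not pass with the substituted transgene. Bcl2l1 averaged 151.7 ± 5.16 CPM against 162.4 ± 6.33 CPM in wild type (SD, n = 5; log2 fold change -0.10, interval -0.18 to -0.02, adjusted p = 0.289). Bad averaged 24.6 ± 2.06 CPM against 27.8 ± 2.04 CPM in wild type (log2 fold change -0.18, interval -0.32 to -0.03, adjusted p = 0.314). Pmaip1 averaged 4.5 ± 0.414 CPM against 5.32 ± 0.715 CPM in wild type (log2 fold change -0.24, interval -0.478 to -0.0055, adjusted p = 0.413). The intervals of Bcl2l1, Bad and Pmaip1 excluded 0, but intervals are not adjusted for the number of genes tested. For Bcl2l11 the log2 fold change was 0.05 with an interval of -0.15 to 0.26, and for Bid it was -0.18 with an interval of -0.49 to 0.13. Bax, Bak1 and Bcl2 gave log2 fold changes of -0.04, 0.09 and 0.01, with intervals that all included 0.

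Set directly against the substituted transgene, ATXN1[82Q] cerebella had more Hrk, Bid and Bcl2l11 and less Bcl2l1. This comparison asks what depends on the pair of substitutions, as far as the lines differ in nothing else. It gave 3 of 10 members higher and 1 lower, where 13.5% and 14.6% of all tested genes were called. The groups did not overlap for 2 higher members, Hrk and Bid, and 1 lower member, Bcl2l1, where this held for 8.28% and 9.61% of all tested genes. The median log2 fold change was 0.093 over the members and 0.00574 over all tested genes. It shares its ATXN1[82Q] libraries with the first comparison and its substituted libraries with the second.

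Hrk was 2.33-fold higher in ATXN1[82Q] than with the substituted transgene, at 34.5 ± 4.21 against 14.8 ± 4.72 CPM. The log2 fold change was 1.22 with an SE of 0.163 (adjusted p = 5.77e-05, SD over n = 5 each). The lowest ATXN1[82Q] library, at 29.97 CPM, exceeded the highest substituted library, at 20.75 CPM. Bcl2l11 averaged 13.3 ± 1.29 CPM in ATXN1[82Q] and 10.2 ± 1.03 CPM with the substituted transgene (log2 fold change 0.38, SE 0.0952, adjusted p = 0.00687), and 1 ATXN1[82Q] library, replicate 4 at 11.44 CPM, lay under the highest substituted library at 11.56 CPM. Both calls held under all 25 alternatives.

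Bid stood at 3.275 to 5.888 CPM in ATXN1[82Q], against 2.255 to 2.742 CPM with the substituted transgene (log2 fold change 0.69, SE 0.145, adjusted p = 0.00228). The groups did not overlap, and the call was lost in libraries with Ttr under 100 CPM (0.40, adjusted p = 0.142). Microglial markers moved beside it, with 12 of 12 higher in ATXN1[82Q] and a summed level of 345 to 382.3 CPM against 196.9 to 232.8 CPM with the substituted transgene. Their part in the change of Bid was not tested. Bcl2l1 ran from 126.7 to 145.5 CPM in ATXN1[82Q] and from 146 to 158.1 CPM with the substituted transgene (log2 fold change -0.13, SE 0.0375, adjusted p = 0.019). Leaving out replicate 3 of the substituted transgene ended that call (adjusted p = 0.0534), as did the fits with Ttr under 100 CPM alone (0.111) and without the brainstem-rich libraries (0.0565). In the same comparison 10 of 10 granule cell markers and 11 of 12 Purkinje cell markers were lower (median log2 fold changes -0.26 and -0.78), and 9 of 10 oligodendrocyte markers were higher (median 0.35). Their part in the change of Bcl2l1 was not tested.

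Bbc3 did not differ beyond the threshold between the transgenes. It averaged 14.9 ± 1.11 CPM in ATXN1[82Q] and 13.4 ± 0.487 CPM with the substituted transgene, a log2 fold change of 0.15 with an interval of -0.01 to 0.32 (adjusted p = 0.154). Pmaip1 gave 0.25 (interval 0.01 to 0.49, adjusted p = 0.104) and Bcl2 -0.19 (interval -0.44 to 0.07). Bad, Bax and Bak1 lay within 0.04 of 0 on the log2 scale, and their intervals reached from -0.15 to 0.14 for Bad, from -0.06 to 0.12 for Bax and from -0.09 to 0.15 for Bak1.

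The genes around these 10 were followed as 6 lists chosen by name, of which 85 of 90 genes were tested. Each count of edgeR calls below is to be read against the shares of all tested genes called in the same comparison. In ATXN1[82Q] against wild type those shares were 16.6% higher and 14.9% lower. Many of the list counts lie near those shares, and nothing particular to a list is read from them. For list counts at an unadjusted p or by DESeq2, no shares of all genes are given. In ATXN1[82Q] against wild type, the other BCL2 family genes gave 2 higher and 3 lower of 10 tested, with a median log2 fold change of 0.022 beside 0.00685 for all genes. Bmf, a BH3-only gene, rose 1.49-fold and stood at 13.4 ± 0.947 CPM against 9.01 ± 0.831 CPM in wild type. Bcl2l2, which encodes the anti-apoptotic BCL-W, stood at 160.2, 160.1, 166.4, 154 and 159.4 CPM in ATXN1[82Q] and at 183 to 190.2 CPM in wild type, with no overlap (log2 fold change -0.22, SE 0.0261, adjusted p = 6.29e-06). Bcl2l15 also fell (log2 fold change -0.49). Bcl2a1b, an anti-apoptotic gene of blood-derived and microglial cells, rose (log2 fold change 1.70, adjusted p = 0.000509) at a level of 1.05 CPM against 0.319 CPM in wild type. Its reads may be shared with near-identical copies, of which Bcl2a1a and Bcl2a1d had at most 13 and 7 counts in a library and were not tested. With the substituted transgene Bmf was the 1 of 10 that passed (11.4 CPM, log2 fold change 0.34, adjusted p = 0.0339). In that comparison 0.208% of all tested genes were called higher and 1.2% lower.

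Downstream of the mitochondria, of 18 genes of the apoptosome, caspases and their inhibitors 3 rose and 4 fell in ATXN1[82Q] against wild type, with a median of 0.0181. Casp8 rose (log2 fold change 0.69), while Casp9, the initiator caspase of the apoptosome, and the caspase inhibitor gene Birc2 fell (-0.25 and -0.37). With the substituted transgene 0 of the 18 passed in edgeR or DESeq2 (without adjustment, 2 lay higher and 1 lower at p under 0.05). By edgeR 0.208% of all tested genes were higher and 1.2% lower in that comparison. At such shares, 0 calls among 18 genes is not read as a result about the list.

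Upstream, of 16 genes of p53 and its targets 5 rose and 3 fell in ATXN1[82Q] against wild type (median 0.0543). Trp53, which encodes p53, stood at 25.5 ± 1.75 CPM against 21.1 ± 0.941 CPM in wild type (log2 fold change 0.27, adjusted p = 0.001). Its relative Trp63 and its target Phlda3 also rose (0.69 and 0.49), and its target Zmat3 fell (-0.33). Of 18 genes of JNK, FOXO and stress signalling 4 rose and 6 fell (median -0.0441). Jun, the AP-1 gene, stood at 101.7 to 116.6 CPM in ATXN1[82Q] and at 65.23 to 79.85 CPM in wild type (log2 fold change 0.60, adjusted p = 9.97e-05). Foxo3 and the JNK gene Mapk8 fell (-0.33 and -0.19), and Rela rose (0.23). Of 11 death receptor and adaptor genes 2 rose and 0 fell (median 0.0967), Tnfrsf1a (0.66) and Fadd (0.31), and at an unadjusted p under 0.05, as in DESeq2, 3 were higher and 0 lower. Of 12 mitochondrial and endoplasmic reticulum partners 1 rose and 3 fell (median -0.0688), with Tmbim6 higher (0.18) and Becn1, Opa1 and Bag1 lower (-0.12, -0.10 and -0.10).

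For the substituted transgene against wild type, the p53, death receptor and partner lists gave 0 calls in edgeR. At an unadjusted p under 0.05 they held 0, 2 and 2 genes, and DESeq2 called 0, 0 and 1. Atf4 was the 1 call of the JNK and FOXO list (log2 fold change -0.11, adjusted p = 0.0455). The share of all tested genes called by edgeR in this comparison was 0.208% higher and 1.2% lower. Between the transgenes, where 13.5% of all tested genes were higher and 14.6% lower, ATXN1[82Q] was higher for Trp53 (0.26), Jun (0.32) and Tnfrsf1a (0.49). Their adjusted p-values were 0.00232, 0.0172 and 0.00153. It was also higher for Casp8 (0.75), Bcl2a1b (1.37), Bmf (0.23), Fas (0.68), Foxo1 (0.33), Phlda3 (0.46), Cdkn1a (0.42), Tmbim6 (0.16) and Bcap31 (0.08). For Fas and Bcap31, ATXN1[82Q] did not pass as higher against wild type. Fas averaged 2.04 CPM in ATXN1[82Q], 1.27 CPM with the substituted transgene and 1.89 CPM in wild type. Bcap31 averaged 74.8, 70.6 and 73 CPM in the same order. Genes lower in ATXN1[82Q] than with the substituted transgene were Birc2 (-0.26), Casp9 (-0.16), Bcl2l15 (-0.46), Bcl2l2 (-0.15), Foxo3 (-0.43), Mapk10 (-0.26) and Zmat3 (-0.25).

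The genes whose levels followed Hrk most closely over the 15 libraries were taken from the 12019 genes whose log2 CPM averaged 2 or more. Pearson correlations of log2 CPM were 0.972 for Ctss, 0.962 for Dao, 0.958 for Itm2c and 0.956 for Tprkb. Ctss, a microglial protease gene, averaged 59.8 CPM in ATXN1[82Q], 34.1 CPM with the substituted transgene and 30.4 CPM in wild type. The lowest correlations were -0.979 for Cck, -0.978 for Cacna1g and -0.975 for Rnf19b. Cck averaged 5.25 CPM in ATXN1[82Q], 18.9 CPM with the substituted transgene and 27.4 CPM in wild type. The 15 points share 3 genotypes, which set most of these values, so the correlations only describe the order of the libraries.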

How the data were processed

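Groups came from the sample titles and genotype labels. STAR 2.5.3a, HTSeq, DESeq2 and mm10 are named, per the submitters' processing notes, as what the authors used. The deposited values are raw whole-number counts per gene symbol. How strand was treated, the counting mode and the annotation: not given in the sources used here. Reads outside genes were 16.8% to 18.2%, ambiguous ones 1.18% to 1.25% and those with several alignments 12.8% to 14.6%, and all of these stayed out of library sizes.

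From the counts, edgeR 4.0.16 (R 4.3.3) fitted all 15 libraries with a mean per genotype, TMM factors (0.968 to 1.04) and a minimum count of 10 in filterByExpr. The quasi-likelihood F-test was adjusted by Benjamini-Hochberg over 15843 genes, and all 10 members were tested. Standard errors are the log2 fold change over the root of F. Reads carried no molecular identifiers, so counts are not counts of independent molecules. Log2 CPM used a prior count of 2. Positions, exon lengths and overlaps came from GENCODE M21 (GRCm38). No pair of libraries within a genotype was a duplicate (over 30 pairs, chi-square was 5.7 to 40.6 times its degrees of freedom).

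The members, gene lists and alternatives were chosen with earlier results of these data known. Genes named from the lists were the up to 4 called genes of each with the smallest p. Those most like Hrk were the 5 highest and 3 lowest correlations. One gene that these rules take is not reported here. The tests were checked on simulated data. Alternatives were each library left out, DESeq2 1.42.0, RLE scaling, a fit without the count filter, one of the compared genotypes alone, the replicate number as a block, Ttr under 100 CPM only, and Ttr or brainstem markers as covariates. Leaving out libraries with a brainstem marker mean over 1 log2 unit above wild type, and Xist as a covariate, came after the data had been seen. Figures were drawn with matplotlib 3.10.9.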

Additional observations from a re-analysis of the deposited data

Results flagged for a closer look

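The effect of the 2 transgenes against wild type differed for 4 of the 10 genes, by the direct test of ATXN1[82Q] against the substituted transgene, in which 13.5% of all tested genes were called higher and 14.6% lower. The difference in log2 fold change was 1.22 for Hrk (edgeR adjusted p = 5.77e-05), 0.69 for Bid (adjusted p = 0.00228), 0.38 for Bcl2l11 (adjusted p = 0.00687) and -0.13 for Bcl2l1 (adjusted p = 0.019). Against wild type, log2 fold changes for ATXN1[82Q] first and the substituted transgene second were 1.81 and 0.59 for Hrk, 0.50 and -0.18 for Bid, 0.44 and 0.05 for Bcl2l11, and -0.23 and -0.10 for Bcl2l1, with the wild-type libraries shared by both.

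Replicate 5 of wild type stood apart for Bid at 3.32 CPM. Its gap to the next wild-type library was 0.741 of the range of the group, above the critical ratio of 0.71 for 5 libraries. Chance flags about 1 in 20 groups, and 30 groups were examined.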

How the results depend on the processing

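Calls for Hrk, Bbc3, Bcl2l11 and Bcl2l1 in ATXN1[82Q] against wild type, for Bbc3 with the substituted transgene, and for Hrk and Bcl2l11 between the transgenes were made under all 25 alternatives. Those of Bid and Bcl2l1 that were lost are given with their values above, and the cause was not tested. With Ttr under 100 CPM only, which leaves 2 or 3 libraries per genotype, 3234 of all genes were called in ATXN1[82Q] against wild type in place of 4993, and 1512 in place of 4454 between the transgenes, with 2 of the members called there in place of 4. With the substituted transgene against wild type 223 genes were called, and 429 with DESeq2 and 123 without the brainstem-rich libraries. Leaving out each library gave 136 to 307 genes there, the fewest without substituted replicates 2 and 4 (136 and 142) and wild-type replicate 2 (143), and 1 to 2 members. Libraries that share a replicate number did not deviate together (median correlation -0.109, over 0.1 in 4 of 15 pairs), and the replicate block gave 4681, 174 and 4152 genes in the 3 comparisons and the same counts of members, 5, 1 and 4.

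Some fold changes close to 0 that did not pass changed sign. In ATXN1[82Q] against wild type Pmaip1 gave -0.0199 with Ttr as a covariate, -0.067 with the brainstem covariate and -0.0928 without brainstem-rich libraries, and Bax gave 0.0218 with Ttr under 100 CPM, 0.0117 with the brainstem covariate and 0.0205 without brainstem-rich libraries. With the substituted transgene and Ttr under 100 CPM, Bcl2l11 gave -0.00657 and Bcl2 -0.0677. Leaving out each library, ranges were -0.0828 to 0.0764 for Pmaip1 and -0.037 to 0.0214 for Bax in ATXN1[82Q] against wild type, -0.0174 to 0.106 for Bcl2l11 and -0.053 to 0.0556 for Bcl2 with the substituted transgene against wild type, and -0.0447 to 0.0368 for Bad and -0.00602 to 0.0652 for Bak1 between the transgenes. Bid rested on 87 to 261 counts per library and Pmaip1 on 164 to 272, the fewest of the 10.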

Other observations

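The high and low sets of Bcl2 in ATXN1[82Q] coincided with the X-inactivation transcript Xist, which exceeded 1000 CPM in 2 libraries of each genotype and was below 1 CPM in 3. The ATXN1[82Q] libraries with Xist had 22.55 and 23.29 CPM of Bcl2, and those without it 16.06, 15.62 and 14.37 CPM. With the substituted transgene the libraries with Xist had 20.8 and 19.28 CPM, and those without it 21.14, 22.95 and 20.34 CPM. In wild type they had 22.46 and 23.46 CPM with Xist, and 20.23, 20.58 and 17.17 CPM without. This was noticed after the values were seen and was not tested. With Xist as a covariate the log2 fold change of Bcl2 in ATXN1[82Q] against wild type was -0.20 (edgeR adjusted p = 0.149).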
